A study of Mus musculus with 15 samples.

Results

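The proteasome subunit genes were followed in bulk RNA sequencing of mouse cortex after theta-burst magnetic stimulation. The members were 34 genes named by symbol: the core alpha ring genes Psma1 to Psma7, the core beta ring genes Psmb1 to Psmb7, the immunoproteasome genes Psmb8, Psmb9 and Psmb10, the base ATPase genes Psmc1 to Psmc6, the other base genes Psmd1, Psmd2 and Psmd4, and the lid genes Psmd3, Psmd6, Psmd7, Psmd8, Psmd11, Psmd12, Psmd13 and Psmd14. All 34 were found among the 56748 genes of the count table, and all 34 were among the 22998 genes abundant enough to be tested. Wild-type C57BL/6J mice received a single session of intermittent theta-burst stimulation (iTBS), continuous theta-burst stimulation (cTBS) or sham stimulation. Each group held 5 animals, and the tissue was taken 3 hours later. Ages are not given. Repetitive transcranial magnetic stimulation drives cortex with magnetic pulses, which iTBS delivers in bursts with pauses and cTBS without pauses. The area is somatosensory cortex in the sample titles but sensorimotor cortex in the design text, and it is called cortex here.

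The proteasome is the barrel-shaped protease that degrades proteins tagged with ubiquitin. Its core consists of outer alpha rings, which gate entry, and inner beta rings, which hold the proteolytic sites; the regulatory particle on either end consists of a base, whose ATPases unfold the substrate, and a lid, which removes ubiquitin. In neurons, proteasome activity is known to take part in the turnover of synaptic proteins and in synaptic plasticity. The genes of the standard particle are expressed in most cells, whereas Psmb8, Psmb9 and Psmb10 encode catalytic subunits induced by interferon that replace Psmb5, Psmb6 and Psmb7.

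The 15 libraries held 15385070 to 47807723 counts, and the biological coefficient of variation was 20.1%. Neuron markers were abundant in every library, with a mean log2 CPM (counts scaled to a common library size) between 9.62 and 9.98 over 7 genes. Markers of regions next to cortex varied. The striatal list of 9 genes ran from 4.61 to 6.98, the choroid plexus list of 5 genes from 1.15 to 4.84 (highest in cTBS 4, sham 2 and sham 5), and the thalamic list of 5 genes from 2.42 to 4.57 (highest in sham 2). Nuclear RNA varied too: the mean log2 CPM of 10 noncoding RNAs that stay in the nucleus, called the nuclear RNA level below, ran from 6.18 in cTBS 4 to 8.53 in sham 3. The 5 libraries with the lowest nuclear RNA level were cTBS 4, cTBS 1, sham 4, cTBS 3 and iTBS 1.

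In sham cortex, the subunit genes of the standard proteasome lay within a narrow band of levels per transcript length, and 2 of the immunoproteasome genes lay far below it. Levels between genes were compared as CPM per kilobase of the longest principal transcript in an earlier mouse annotation. The median was 29.6 CPM per kilobase over the 7 alpha ring genes, 38.0 over the 7 beta ring genes, 39.4 over the 6 base ATPase genes, 34.1 over the 3 other base genes and 31.6 over the 8 lid genes. The highest was Psmc5, a base ATPase, at 66.7 ± 5.70 CPM per kilobase (SD, n = 5), followed by Psmb6, the beta1 catalytic subunit, at 63.6 ± 7.25. Their ranges over the 5 sham libraries overlapped, so their order was not resolved. Among the other catalytic subunits, Psmb5 (beta5) was at 24.5 ± 3.27 and Psmb7 (beta2) at 20.5 ± 2.44 CPM per kilobase. The lowest of the 31 standard genes was Psma2 at 18.0 ± 1.40; its annotated transcript of 2911 bases is long for an alpha subunit gene, and a shorter transcript in use would raise this value.

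Psmb8 was at 0.206 ± 0.0766 CPM per kilobase (SD, n = 5) in sham, Psmb9 at 0.337 ± 0.0631 and Psmb10 at 10.6 ± 1.95. Raw counts ran from 4 to 15 per sham library for Psmb8 and from 8 to 24 for Psmb9, so these levels carry large counting error. At the beta5 position, Psmb8 made up 0.852% ± 0.381 of the summed Psmb8 and Psmb5 level per length in sham, 1.29% ± 0.344 after iTBS and 1.05% ± 0.231 after cTBS (SD, n = 5 each). At the beta1 position, Psmb9 made up 0.528% ± 0.0868 in sham, 0.563% ± 0.104 after iTBS and 0.636% ± 0.244 after cTBS. At the beta2 position the induced gene was not rare: Psmb10 made up 33.9% ± 2.26 of the summed Psmb10 and Psmb7 level in sham, 36.8% ± 4.00 after iTBS and 34.8% ± 2.11 after cTBS. For all 3 positions the ranges of the groups overlapped.

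**Figure D1:**
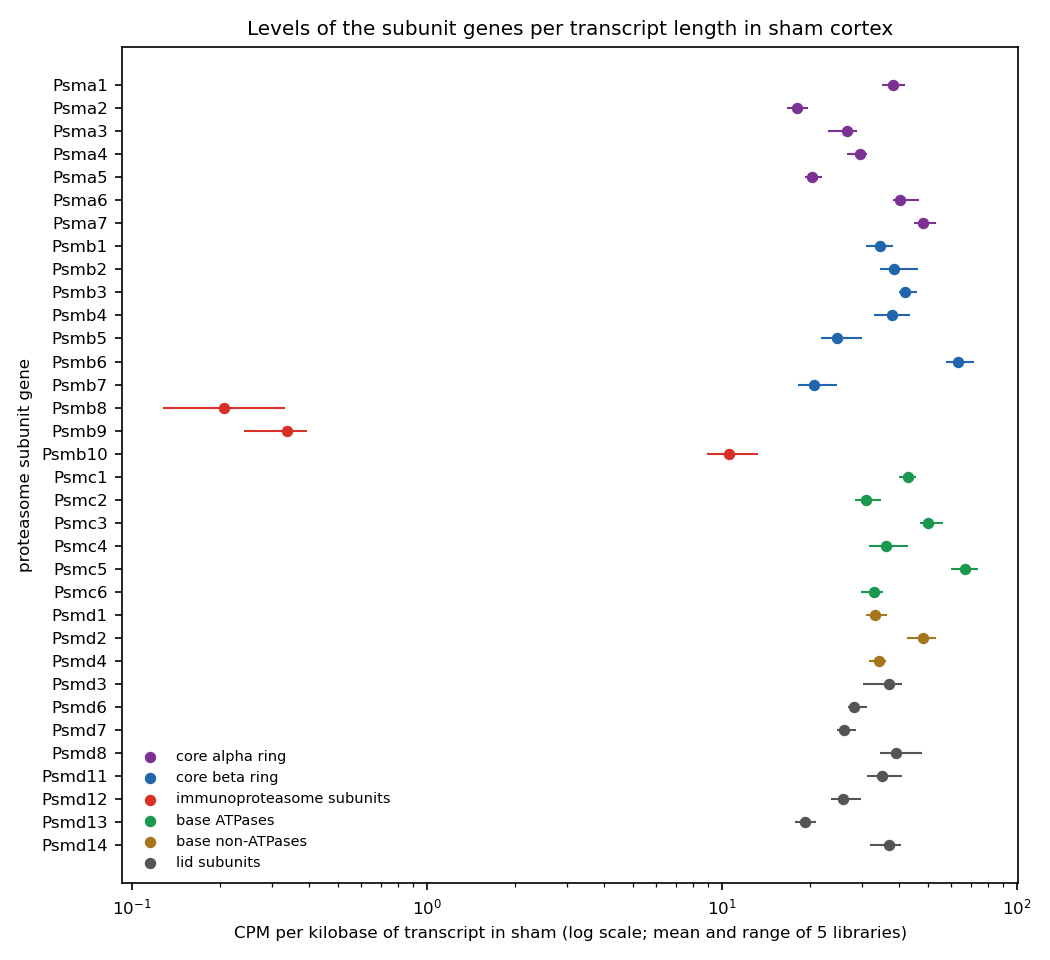
Level of each of the 34 subunit genes in the sham libraries, as CPM per kilobase of transcript on a log axis; points are means and lines the range of 5 libraries, coloured by place in the particle. The 31 standard genes sit between 18.0 and 66.7 CPM per kilobase, Psmb10 sits at 10.6, and Psmb8 and Psmb9 sit at 0.206 and 0.337.

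Promoter sequence was available for 28 of the 34 genes, in 30 windows of the RefSeq table (GRCm38.p6) from 250 bases before to 50 bases after a transcript start. Both strands were searched for the antioxidant response element TGACNNNGC, which is bound by the proteasome regulators Nfe2l1 and Nfe2l2, for the CCAAT box CCAAT, for the interferon-stimulated response element (GAAA, 2 bases of any kind and GAAA) and for the gamma-activated site TTCNNNGAA. The antioxidant response element was found in 4 windows (13.3%, against 12.4% of all 32851 windows), in Psmb5, Psmb6, Psmc6 and Psmd12. The CCAAT box was in 11 windows (36.7%, against 37.4%). The interferon-stimulated element was in 2, those of Psmb3 and Psmd4 (6.67%, against 3.44%), and the gamma-activated site was in 2, those of Psmb8 and Psmd2 (6.67%, against 8.30%). A match is a run of letters and not a measured site, and these shares describe the windows only. The 200 bases before the start are printed for Psmb3 (chr11:97703234-97703433, plus strand), the member with the smallest p in both comparisons with cTBS, for Psmd4 (chr3:95042615-95042814, minus strand), which shares its pair of motifs, and for Psmb5 (chr14:54617996-54618195, minus strand) and Psmb8 (chr17:34197995-34198194, plus strand), the alternative subunits of the beta5 position. Each is read 5′ to 3′ towards the start; capitals mark the motifs or their reverse complements, and no 2 of the matches overlap.
Psmb3: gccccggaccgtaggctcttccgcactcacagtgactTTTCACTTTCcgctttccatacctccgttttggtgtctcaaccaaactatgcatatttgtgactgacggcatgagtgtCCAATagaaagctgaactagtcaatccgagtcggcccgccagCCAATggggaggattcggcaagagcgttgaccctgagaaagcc
Psmd4: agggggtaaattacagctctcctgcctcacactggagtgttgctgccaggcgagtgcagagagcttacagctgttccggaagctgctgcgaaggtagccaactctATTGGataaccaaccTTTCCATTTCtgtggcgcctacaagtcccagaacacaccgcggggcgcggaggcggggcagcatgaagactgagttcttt
Psmb5: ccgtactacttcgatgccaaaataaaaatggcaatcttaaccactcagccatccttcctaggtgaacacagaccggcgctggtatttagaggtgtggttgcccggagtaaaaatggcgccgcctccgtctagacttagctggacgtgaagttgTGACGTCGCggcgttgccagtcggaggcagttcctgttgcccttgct
Psmb8: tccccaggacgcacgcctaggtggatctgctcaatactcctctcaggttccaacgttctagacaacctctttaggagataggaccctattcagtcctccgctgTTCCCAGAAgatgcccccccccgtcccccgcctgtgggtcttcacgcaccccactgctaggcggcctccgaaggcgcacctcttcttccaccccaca
In Psmb3 the capitals are an interferon-stimulated element on the minus strand, at -163 to -154 from the start, and CCAAT boxes that begin at -85 and -43. In Psmd4 they are a CCAAT box and an interferon-stimulated element on the minus strand. In Psmb5 they are an antioxidant response element, and in Psmb8 a gamma-activated site.

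The comparison of cTBS with sham asked how the continuous protocol left the subunit genes 3 hours later. All 34 genes had a fold change above 0, with a median log2 fold change of 0.15, where the median of all 22998 genes was -0.02. None passed edgeR's quasi-likelihood test after Benjamini-Hochberg adjustment, as was so for all genes (0% called), and the smallest adjusted p of a member was 0.144. An unadjusted p under 0.05 was reached by 10 members, all higher, where 6.80% of all genes were higher at that threshold. DESeq2 called 0 of the 34 and 0.159% of its tested genes higher. P-values set a group difference against the spread between these animals, and in bulk tissue fewer cells of a type and less RNA per cell cannot be told apart.

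The beta ring genes lay highest among the standard subunits, with a median of 0.23 and all 7 above 0; 5 of them were at unadjusted p under 0.05 (Psmb1, Psmb3, Psmb4, Psmb5 and Psmb6). Psmb3, a structural beta subunit, was at 31.7, 31.4, 30.5, 35.1 and 32.2 CPM in sham 1 to 5 and at 40.3, 39.3, 38.0, 40.7 and 33.4 CPM in cTBS 1 to 5. Only cTBS 5 lay within the sham range, below sham 4. Its log2 fold change was 0.25 ± 0.07 (SE; unadjusted p = 0.00274, edgeR Benjamini-Hochberg adjusted p = 0.144; 95% interval 0.11 to 0.39). Psmb6, the subunit that cuts after acidic residues, was at 45.9, 57.4, 46.1, 56.6 and 47.5 CPM in sham and at 62.8, 62.3, 62.0, 65.4 and 54.2 CPM in cTBS. Here too 4 cTBS libraries lay above every sham library, while cTBS 5 lay below sham 2 and sham 4. The log2 fold change was 0.27 ± 0.08 (SE; edgeR adjusted p = 0.144). Psmb1, another structural beta subunit, was at 59.9, 60.2, 54.1, 66.9 and 60.6 CPM in sham and at 74.9, 69.0, 70.6, 74.1 and 66.4 CPM in cTBS. Its groups overlapped through cTBS 5 and sham 4 alone, and the log2 fold change was 0.23 ± 0.07 (SE; edgeR adjusted p = 0.144). Psmb5, the chymotrypsin-like catalytic subunit, was at 19.5, 20.2, 21.9, 27.0 and 21.8 CPM in sham and at 27.1, 25.6, 27.3, 29.6 and 22.9 CPM in cTBS. The highest sham value was again sham 4, and the log2 fold change was 0.26 ± 0.10 (SE; edgeR adjusted p = 0.154). Psmb7, the trypsin-like subunit, was at 0.16 ± 0.10 (SE; edgeR adjusted p = 0.31).

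The alpha ring had a median of 0.13, with 7 of 7 genes above 0 and 2 at unadjusted p under 0.05. Psma6 was at 40.1, 41.1, 39.6, 48.6 and 40.2 CPM in sham and at 53.0, 47.0, 47.1, 54.3 and 41.9 CPM in cTBS. Sham 4 reached into the cTBS range, and the log2 fold change was 0.21 ± 0.08 (SE; edgeR adjusted p = 0.152). Psma2 was at 52.3 ± 4.07 CPM (SD, n = 5) in sham and 60.3 ± 4.63 in cTBS, with a log2 fold change of 0.20 ± 0.08 (SE; edgeR adjusted p = 0.151).

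In the regulatory particle every gene of the base and lid was above 0. The 6 base ATPase genes had a median log2 fold change of 0.14, the 3 other base genes 0.15 and the 8 lid genes 0.12. The genes at unadjusted p under 0.05 were 1 ATPase gene, Psmc1, and 2 other base genes, the ubiquitin receptor Psmd4 and the scaffold Psmd2, and 0 lid genes. The member nearest to 0 was Psmd11, a lid scaffold, at 99.4 ± 10.3 CPM (SD, n = 5) in sham and 102 ± 8.03 in cTBS (log2 fold change 0.03 ± 0.07, SE, 95% interval -0.11 to 0.18). Across the 31 standard genes, genes with shorter transcripts tended to have the larger fold change for cTBS against sham (Spearman rho = -0.46 with transcript length, a description over genes that share the same 10 libraries). The same correlation over all genes was not computed, so the trend may not be particular to the subunit genes. Of the libraries, sham 4 had all 34 members above their sham mean, cTBS 4 had 34, cTBS 1 and cTBS 2 had 33 each, cTBS 3 had 32 and cTBS 5 had 21.

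Of the immunoproteasome genes, Psmb8 and Psmb9 had larger fold changes and wider errors than any standard gene, while the fold change of Psmb10 lay within the range of the standard genes. Psmb8 was at 0.540, 0.271, 0.208, 0.333 and 0.325 CPM in sham and at 0.509, 0.569, 0.589, 0.626 and 0.271 CPM in cTBS. The groups overlapped through sham 1 and cTBS 5, and the log2 fold change was 0.59 ± 0.31 (SE; edgeR adjusted p = 0.234). Psmb9 was at 0.456 ± 0.0853 CPM (SD, n = 5) in sham and 0.660 ± 0.247 in cTBS, a log2 fold change of 0.52 ± 0.29 (SE; edgeR adjusted p = 0.272). Psmb10 was at 13.9 ± 2.56 CPM in sham and 16.1 ± 1.77 in cTBS (SD, n = 5 each), a log2 fold change of 0.21 ± 0.13 (SE; edgeR adjusted p = 0.328). Psmb9 overlaps the antigen peptide transporter gene Tap1 on the opposite strand, and whether the counting used strand is not given, so these 2 genes may share reads.

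**Figure D2:**
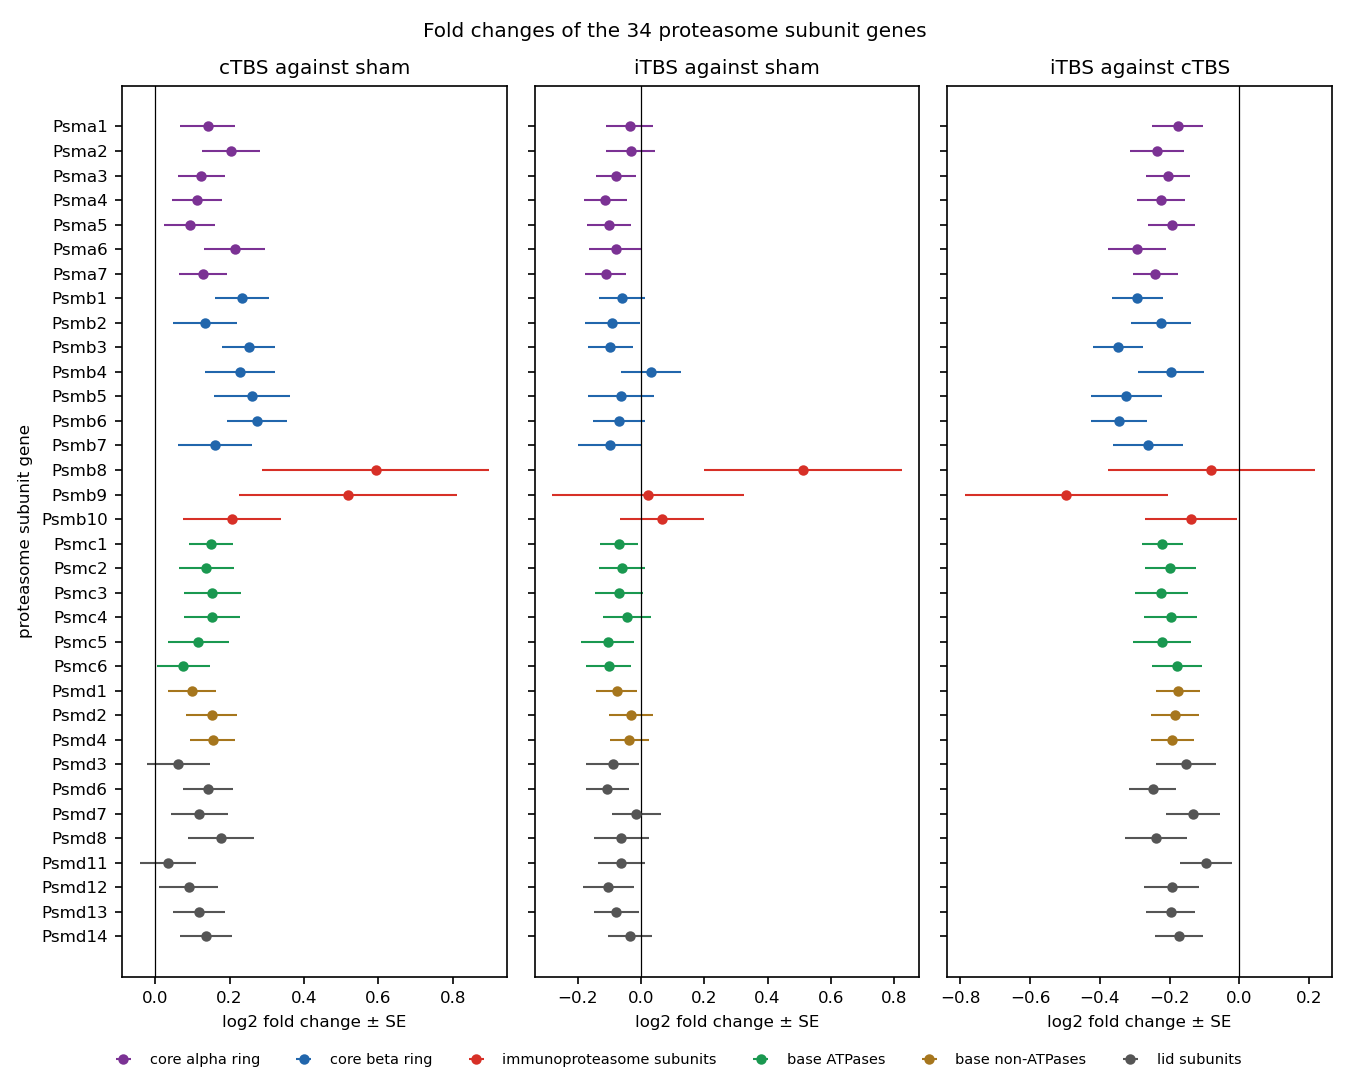
Log2 fold change (point) and standard error (line) of the 34 subunit genes in the 3 comparisons, ordered and coloured by place in the particle. All 34 lie above 0 for cTBS against sham, 30 lie below 0 for iTBS against sham and all 34 lie below 0 for iTBS against cTBS; none passed at an adjusted p of 0.05.

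Among the alternatives run, members passed in this comparison only when library sham 4 was left out. Without sham 4, 19 of the 34 passed as higher (edgeR, smallest Benjamini-Hochberg adjusted p = 0.0173), with a median log2 fold change of 0.23, where 9.12% of all genes passed as higher and 5726 genes passed in both directions together. Other choices came near the threshold: the smallest adjusted p of a member was 0.051 without cTBS 5 (edgeR) and 0.0587 with DESeq2. Sham 4 had a nuclear RNA level of 6.68, the lowest of the sham libraries, which otherwise lay between 7.78 and 8.53. Without the 3 libraries highest in choroid plexus markers (sham 2, sham 5 and cTBS 4), all 34 members stayed above 0 with a median of 0.15.

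For iTBS against sham, the standard subunit genes lay slightly below sham and none reached an unadjusted p of 0.05. Of the 34 genes, 30 were below 0, with a median log2 fold change of -0.07 where the median of all genes was at -0.00097. No direction had a member at unadjusted p under 0.05 (0 of 34), where 0.974% of all genes were lower, and with edgeR 0% of genes passed adjusted. DESeq2 called 0 members. The medians were -0.08 for the alpha ring, -0.07 for the beta ring, -0.07 for the base ATPases, -0.04 for the other base genes and -0.07 for the lid. Without sham 4, 21 of 34 were below 0 and the median was -0.0051.

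Psma7, the alpha ring gene with the smallest p here, was at 43.7, 45.3, 41.8, 48.6 and 41.2 CPM in sham and at 45.8, 38.6, 41.2, 39.1 and 39.5 CPM in iTBS. iTBS 1 lay within the sham range and the groups overlapped. The log2 fold change was -0.11 ± 0.06 (SE; edgeR unadjusted p = 0.102, adjusted p = 1; 95% interval -0.24 to 0.01). The next members by p lay close by: Psma4 at -0.11 ± 0.07, the lid gene Psmd6 at -0.11 ± 0.07, Psma5 at -0.10 ± 0.07 and the ATPase gene Psmc6 at -0.10 ± 0.07 (log2 fold change, SE). The catalytic genes were at -0.06 ± 0.10 for Psmb5, -0.07 ± 0.08 for Psmb6 and -0.10 ± 0.10 for Psmb7. Their 95% intervals ran from -0.27 to 0.14, from -0.23 to 0.09 and from -0.30 to 0.10. Differences within these bounds were not excluded at that level.

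The genes above 0 were the structural beta gene Psmb4 at 0.03 ± 0.09 and the 3 immunoproteasome genes. Psmb8 was at 0.407, 0.599, 0.633, 0.439 and 0.383 CPM in iTBS 1 to 5, all above the 4 sham libraries other than sham 1. Its log2 fold change against sham was 0.51 ± 0.31 (SE; edgeR unadjusted p = 0.121, adjusted p = 1). Psmb9 was at 0.02 ± 0.30 and Psmb10 at 0.07 ± 0.13, and the sign of both changed when single libraries were left out.

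**Figure D3:**
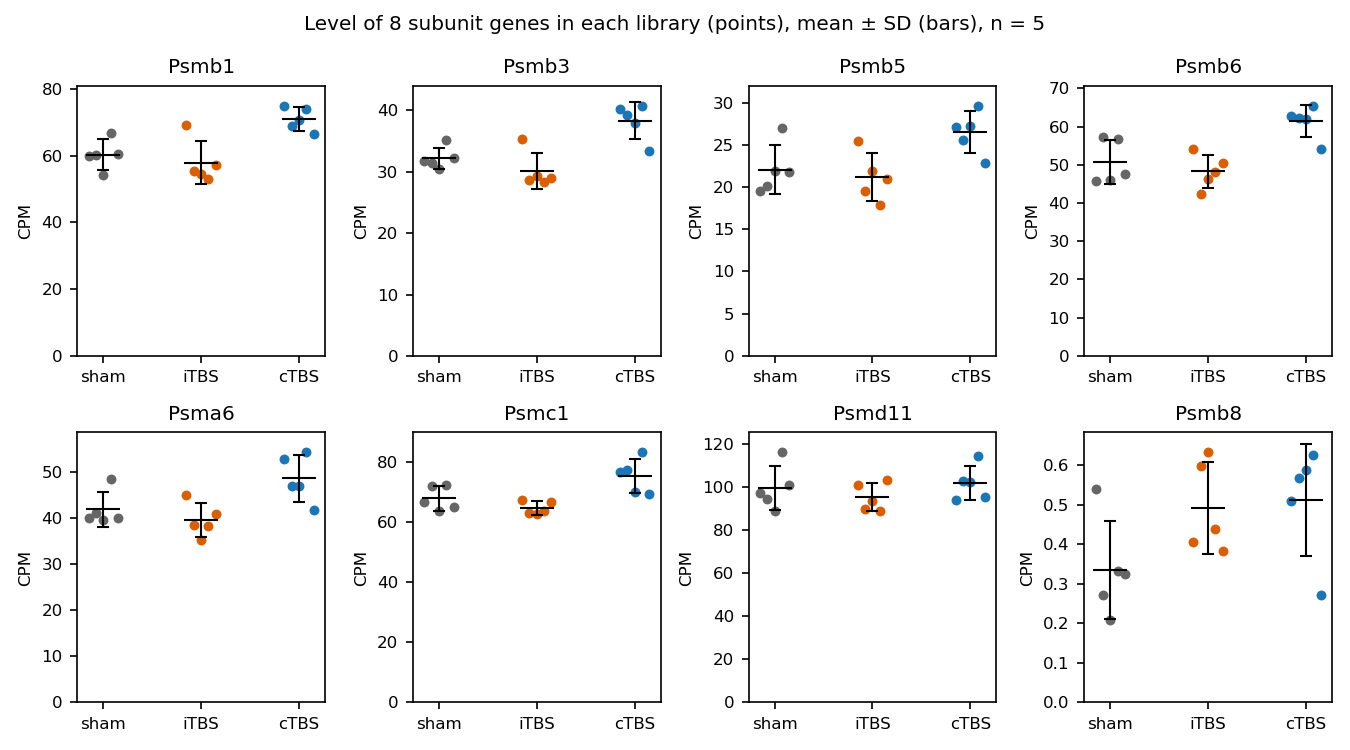
CPM of 8 subunit genes in each library (points) with the group mean and SD (bars, n = 5). For Psmb3, Psmb1, Psmb5, Psmb6, Psma6 and Psmc1 the cTBS mean is the highest and the sham and cTBS libraries mingle at the edges. The iTBS libraries of Psmb6 and Psmc1 all lie below the cTBS libraries. Psmd11 lies at 99.4, 95.3 and 102 CPM in sham, iTBS and cTBS, and Psmb8 stays under 1 CPM in every library.

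The direct comparison of iTBS with cTBS asked whether the protocols differed from each other. It shares the cTBS libraries with the comparison above, so its values are not separate evidence about them. All 34 genes were below 0, with a median log2 fold change of -0.20 where the median of all genes was 0.03. None passed with edgeR (0% of all genes; smallest Benjamini-Hochberg adjusted p of a member = 0.0838). The unadjusted p was under 0.05 for 27 members, all lower, where 10.6% of all genes were lower. DESeq2 called 13 of the 34 lower, where it called 3.33% of its genes lower: Psma2, Psma3, Psma4, Psma6, Psma7, Psmb1, Psmb3, Psmb5, Psmb6, Psmc1, Psmc3, Psmd4 and Psmd6. With edgeR, 23 members passed as lower without sham 4 (5.31% of all genes), 28 without iTBS 1 (8.59%) and 19 without cTBS 5 (4.05%). Every other fit that left out a single library passed 0 members. Sham 4 is in neither group of this comparison and enters only through the shared fit. With only the 2 groups compared in the fit, 0 members passed (edgeR, smallest Benjamini-Hochberg adjusted p of a member = 0.0601).

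By place in the particle, unadjusted p was under 0.05 for 7 of 7 alpha ring genes, 6 of 7 beta ring genes, 6 of 6 ATPase genes, 3 of 3 other base genes, 5 of 8 lid genes and 0 of 3 immunoproteasome genes. Psmb3 was at 35.3, 28.6, 29.3, 28.3 and 29.0 CPM in iTBS 1 to 5, and only iTBS 1 exceeded the lowest cTBS library. Its log2 fold change was -0.35 ± 0.07 (SE; edgeR unadjusted p = 0.000158, adjusted p = 0.0838). Psmb6 was at 54.1, 42.4, 46.3, 48.1 and 50.6 CPM in iTBS, below every cTBS library. It was at -0.34 ± 0.08 (SE; edgeR adjusted p = 0.0838). Psmb1 was at 69.2, 55.5, 54.6, 53.1 and 57.2 CPM in iTBS, with iTBS 1 inside the cTBS range, and at -0.29 ± 0.07 (SE; edgeR adjusted p = 0.0838).

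Psmc1, an ATPase of the base, was at 67.5, 62.9, 62.7, 63.6 and 66.8 CPM in iTBS and at 76.6, 77.5, 70.1, 83.2 and 69.6 CPM in cTBS. The groups did not overlap, and the log2 fold change was -0.22 ± 0.06 (SE; edgeR adjusted p = 0.0838). Psmb6 and Psmc1 were the 2 members whose iTBS libraries all lay below the cTBS libraries, a pattern seen in 1.70% of all genes. For cTBS above sham the same count was 0 of 34, where 0.626% of all genes showed it. Psma7 was at -0.24 ± 0.06 and Psmd6 at -0.25 ± 0.07 (log2 fold change, SE). Of the other catalytic genes, Psmb5 was at -0.32 ± 0.10 and Psmb7 at -0.26 ± 0.10, while Psmb8 was at -0.08 ± 0.30, Psmb9 at -0.50 ± 0.29 and Psmb10 at -0.14 ± 0.13. The smallest difference of a standard gene was again that of Psmd11, at -0.10 ± 0.07. Across the 31 standard genes the fold change followed transcript length with Spearman rho = 0.59, given as a description only and not computed over all genes.

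The level of the proteasome genes moved with the nuclear RNA level of the libraries, which also differed in depth. The mean log2 CPM of the 34 genes was 5.23 ± 0.101 in sham, 5.18 ± 0.0910 after iTBS and 5.40 ± 0.0983 after cTBS (SD, n = 5 each). The nuclear RNA level was 7.87 ± 0.725 in sham, 7.94 ± 0.538 after iTBS and 6.98 ± 0.583 after cTBS, lower where the proteasome level was higher. Within each group, the library with the lowest nuclear RNA level had the highest proteasome level: sham 4 (5.39), iTBS 1 (5.32) and cTBS 4 (5.52). In the cTBS group the library with the highest nuclear RNA level, cTBS 5 (7.56), had the lowest proteasome level, 5.25, and the same held for sham 3 (8.53) with 5.12 in sham. In the iTBS group it did not: iTBS 2 had the highest nuclear RNA level, 8.40, and iTBS 4 the lowest proteasome level, 5.10 against 5.12 in iTBS 2. The deeper libraries also had the higher proteasome levels. Libraries ranked 1 to 7 by proteasome level held 35545632 to 47807723 counts, and the others 32165734 or fewer. Mean counts were 2.99e+07 in sham, 2.97e+07 after iTBS and 4.02e+07 after cTBS. The part of depth in the proteasome differences was not tested.

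**Figure D4:**
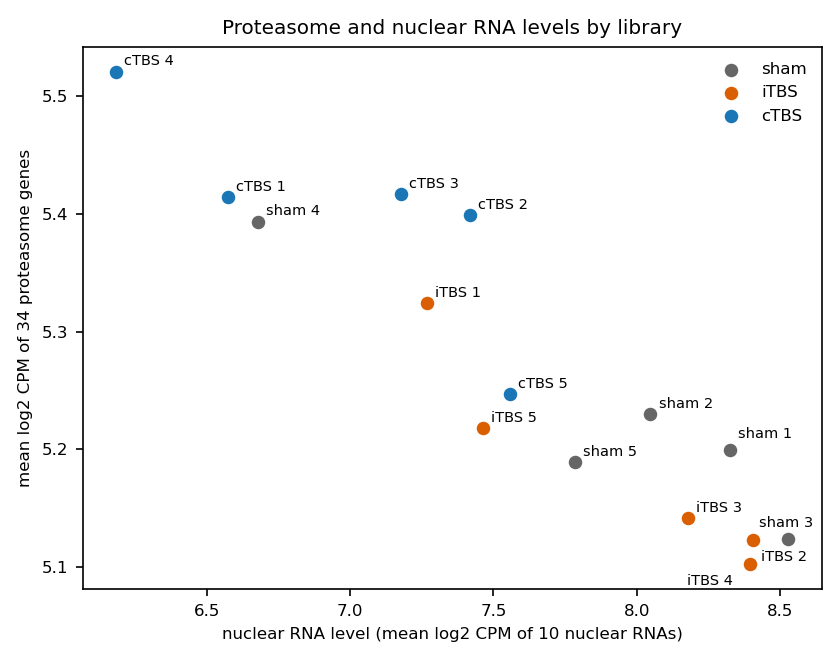
Mean log2 CPM of the 34 proteasome genes (vertical axis) against the nuclear RNA level, the mean log2 CPM of 10 nuclear noncoding RNAs (horizontal axis), for the 15 libraries, coloured by group. The libraries fall from upper left, cTBS 4 at 6.18 and 5.52, to lower right, sham 3 at 8.53 and 5.12, with libraries of every group along the way.

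With the groups in the model, the slope of each gene on the nuclear RNA level was estimated with edgeR. All 34 members had a slope below 0, with a median of -0.14 log2 units per unit of nuclear RNA level, against 0.02 over all genes. The slope passed the Benjamini-Hochberg threshold below 0 for 26 members and above 0 for 0. Of all 22998 genes, 16.5% passed below 0 and 6584 genes passed above 0. Psmb10 had the steepest slope at -0.27, followed by the catalytic genes Psmb7 at -0.25 and Psmb5 at -0.23, and Psmb8 was nearest to 0 at -0.0080. Psmb9, Psmb8, Psma3, Psma4, Psmc6, Psmd3, Psmd6 and Psmd14 did not pass. Without cTBS 4 and cTBS 1, the libraries farthest from the median nuclear RNA level, 33 members were below 0 and 19 passed, where 14.5% of all genes passed below 0.

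Once the nuclear RNA level was a covariate, the differences between groups were smaller. For cTBS against sham the median of the members was 0.030, with 24 of 34 above 0 and 0 at unadjusted p under 0.05 (edgeR), where 2.54% of all genes were higher. Psmb3 was then at 0.13 ± 0.06, Psmb6 at 0.14 ± 0.07, Psmb5 at 0.06 ± 0.08, Psmb7 at -0.05 ± 0.06 and Psmd11 at -0.10 ± 0.06 (log2 fold change, SE). Psmb8 was at 0.58 ± 0.34 and Psmb9 at 0.40 ± 0.32, with the same wide errors. For iTBS against cTBS the median was -0.087, with 31 of 34 below 0 and 7 lower at unadjusted p under 0.05, where 3.41% of all genes were lower. Psmb3 was at -0.22 ± 0.07 and Psmb6 at -0.20 ± 0.07. For iTBS against sham the median was -0.058 and 30 of 34 were below 0. The part of the nuclear RNA level in the group differences was not tested beyond this fit, since it also differed between the groups.

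**Figure D5:**
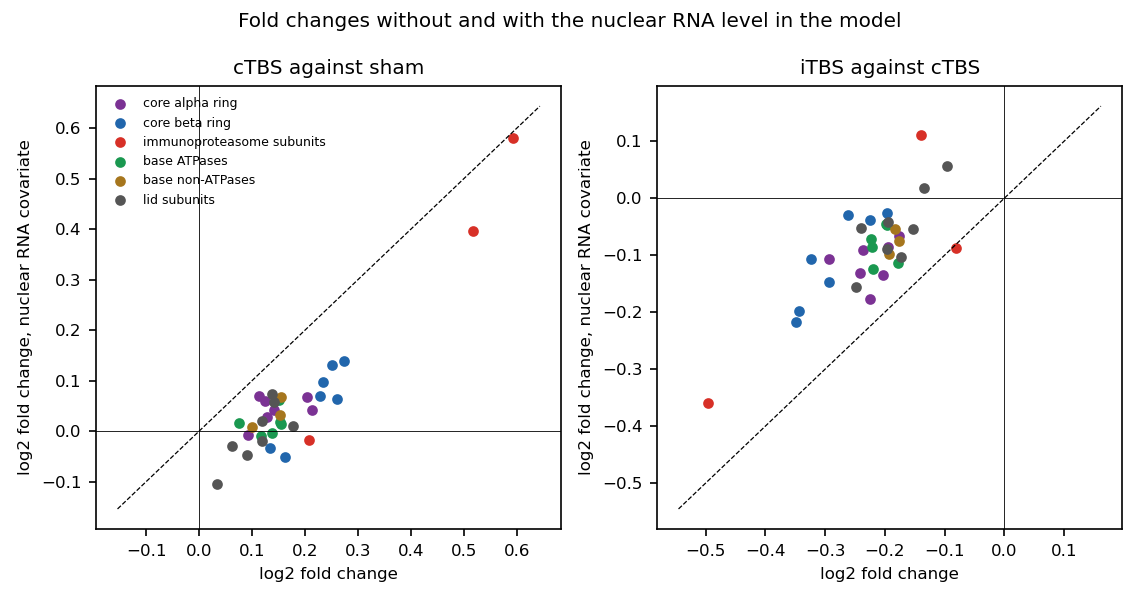
Log2 fold change of the 34 members without (horizontal) and with (vertical) the nuclear RNA level as a covariate, for cTBS against sham and iTBS against cTBS; the dashed line marks equal values. With the covariate, 30 of the 31 standard genes lie nearer to 0 for cTBS against sham (Psmd11 lies farther, at -0.10) and 31 of 31 for iTBS against cTBS, with medians of 0.030 and -0.087 over the members against 0.15 and -0.20 without it, and Psmb8 lies close to the dashed line.

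Markers of cell types and of neighbouring regions were read in the same fits. For cTBS against sham the median log2 fold change was 0.17 over 10 microglia markers, 0.22 over 7 oligodendrocyte markers, 0.12 over 6 astrocyte markers, 0.05 over 7 neuron markers and 0.01 over 7 endothelial markers, and 0 of these genes passed with edgeR after adjustment. For iTBS against cTBS the same medians were -0.20, -0.29, -0.17, -0.06 and 0.15, and for iTBS against sham they were -0.03, -0.06, -0.05, 0.01 and 0.09. For cTBS against sham, the striatal markers had a median of 0.68 (9 of 9 above 0), the thalamic markers -0.62 (0 of 5 above 0) and the choroid plexus markers -0.27 (1 of 5 above 0). For iTBS against sham, these medians were 0.27, -0.53 and -1.06, and for iTBS against cTBS they were -0.48, -0.31 and -0.88. In mean log2 CPM, single libraries stood apart. The thalamic level was 4.57 in sham 2, 2.56 to 2.68 in the other sham libraries and 2.61 to 2.96 in cTBS. The choroid plexus level was 4.79 in sham 2, 4.76 in sham 5 and 4.84 in cTBS 4, and at most 3.51 in any other library. The part of these cell types and regions in the proteasome differences was not tested.

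Beyond the subunits, 57 of 60 listed genes of the ubiquitin-proteasome and antigen presentation pathways were tested, and 0 passed in any comparison with edgeR. At unadjusted p under 0.05, 8 were higher and 2 lower for cTBS against sham, 3 higher and 0 lower for iTBS against sham, and 2 higher and 9 lower for iTBS against cTBS. Over all genes, the shares at that threshold were 6.80% higher and 17.6% lower in the comparison of cTBS with sham, 0.952% and 0.974% for iTBS against sham, and 20% and 10.6% for iTBS against cTBS. The pathway genes' median log2 fold changes were 0.07, -0.03 and -0.09, between those of the subunit genes and those of all genes. The assembly chaperones, which build the core and base, had 7 of 8 genes above 0 for cTBS against sham with a median of 0.09, and the ubiquitin shuttle and extraction genes had 9 of 9 above 0 with a median of 0.09. The 7 genes of transcriptional control, among them Nfe2l1 and Nfe2l2, had a median of 0.04, with 6 above 0.

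Ubb, which encodes polyubiquitin, was at 1982 ± 250.3 CPM (SD, n = 5) in sham, 1894 ± 156 in iTBS and 2399 ± 263 in cTBS. Its iTBS libraries all lay below its cTBS libraries, with a log2 fold change of -0.34 ± 0.10 for iTBS against cTBS (SE; edgeR adjusted p = 0.0838) and of 0.28 ± 0.10 for cTBS against sham (edgeR adjusted p = 0.145). Ube3a, a ubiquitin ligase that binds the proteasome, went the other way: it was at 255, 249, 254, 173 and 232 CPM in sham and at 190, 186, 160, 162 and 206 CPM in cTBS. Sham 4 lay among the cTBS libraries, and the log2 fold change was -0.36 ± 0.11 (SE; edgeR adjusted p = 0.144). Psme1, a subunit of the interferon-induced activator of the core, was at 22.3, 19.8, 15.4, 17.7 and 19.3 CPM in iTBS and at 22.5, 26.5, 24.5, 27.7 and 23.1 CPM in cTBS. Every iTBS library lay below the cTBS libraries, and the log2 fold change was -0.39 ± 0.11 (SE; edgeR adjusted p = 0.0838).

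In the antigen presentation and interferon list of 14 genes, 8 were above 0 for each protocol against sham, with medians of 0.03 for iTBS and 0.02 for cTBS. Tap1, which carries peptides into the endoplasmic reticulum, was at 1.80, 1.51, 1.46, 1.18 and 1.23 CPM in sham, at 1.55, 2.43, 2.28, 1.57 and 1.66 CPM in iTBS and at 1.84, 1.99, 2.44, 1.88 and 2.14 CPM in cTBS. The cTBS libraries all lay above the sham libraries, and the log2 fold changes were 0.52 ± 0.18 for cTBS (SE; edgeR adjusted p = 0.144) and 0.40 ± 0.19 for iTBS (adjusted p = 1). The interferon regulatory factor gene Irf8, which marks microglia, was at 3.56 ± 0.356 CPM (SD, n = 5) in sham and 4.39 ± 0.351 in iTBS, a log2 fold change of 0.30 ± 0.11 (SE; edgeR unadjusted p = 0.0133, adjusted p = 1). The list of 10 microglia markers, which does not hold Irf8, did not rise with it: 6 of 10 were below 0, with a median of -0.03. Irf1, a transcriptional activator of the immunoproteasome genes, was at 0.30 ± 0.13 for iTBS against sham (unadjusted p = 0.036, adjusted p = 1).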

How the data were processed

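Total RNA of cortex from 15 mice was sequenced after ribosomal depletion with a stranded kit, per the labels' protocols. The authors deposited raw counts per Ensembl gene and a variance-stabilized table (log2-like units) of the same libraries. The tools STAR, fastp and DESeq2 and the build GRCm39 (mm39) are named, per the submitters' processing notes; versions, counter, annotation and strand setting were not given in the sources used here. Overlapping genes are therefore uncertain: Psma4, Psma5, Psmb7, Psmb8, Psmb9, Psmc3, Psmd1, Psmd3 and Psmd13 overlap an exon of a gene on the other strand, and Psmb5 and Psmd1 of one on the same strand, in GENCODE M21.

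Symbols were matched by Ensembl identifier, all 161 listed. The quasi-likelihood test of edgeR 4.0.16 (R 4.3.3) was run on the counts of all 15 libraries with a term per group, TMM scaling and the default expression filter, which kept 22998 of 45315 genes with counts. Adjustment was over all genes (Benjamini-Hochberg, threshold 0.05). Standard errors are the log2 fold change divided by the square root of F, and intervals are 1.96 standard errors. CPM used the scaled library sizes. The test was tried on simulated data with known changes. These changes were larger than those of the standard subunit genes, and the simulated spread was below the coefficient of variation of the data. The trial therefore does not show how often differences as small as those of the standard genes would be found. Alternatives were RLE scaling, no filter, DESeq2 1.42.0, limma 3.58.1 (voom, and on the deposited log2-like values), replicate, nuclear RNA and library number terms, only the groups compared, and each library left out; leaving out sham 2, sham 5 and cTBS 4 together was chosen after seeing the data.

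The members, lists and tests were chosen with earlier results of these data known. In each comparison the rule named the 6 members with the smallest p, the catalytic genes Psmb5 to Psmb10 and the 3 other pathway genes with the smallest p. Others, such as Psmd11 and the members listed by name beside a count, were named after their values were seen. A gene that the rule takes is not reported here. Psmb11, Psma8 and Ddi1 had too few counts to be tested. No table of protein sequences was used here.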

Additional observations from a re-analysis of the deposited data

Results flagged for a closer look

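The values of the 34 members in each group of 5 libraries were searched for a library set far apart from the others. Of 102 such groups, 4 had one (3.92%), where chance gives about 1 in 20 if the groups are independent. The groups here share the same libraries and are not independent. Psma6 was at 48.6 CPM in sham 4, where the other sham libraries lay between 39.6 and 41.1 CPM. Psmb1 was at 69.2 CPM in iTBS 1, where the other iTBS libraries lay between 53.1 and 57.2 CPM. Psmb3 was at 35.3 CPM in iTBS 1, against 28.3 to 29.3 CPM in the others. Psmc5 was at 113 CPM in cTBS 4, against 89.7 to 92.2 CPM in the other cTBS libraries. In each case the library was the highest of its group, and it was also the one with the lowest nuclear RNA level of its group.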

How the results depend on the processing

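The 34 proteasome genes kept a median above 0 in the comparison of cTBS with sham, and below 0 in iTBS against cTBS, in every alternative run, and 962 of 1025 values for named genes kept their direction and side of the threshold. For cTBS against sham, 362 genes passed with DESeq2, and between 0 and 5726 when single libraries were left out (5726 without sham 4, 1 without iTBS 1, 0 otherwise), of which 0 to 19 were proteasome genes. For iTBS against cTBS, 2520 genes passed with DESeq2, 13 of them proteasome genes, and 5 with a replicate block; leaving out single libraries gave 0 to 4474, with 0 to 28 proteasome genes (3637 genes without sham 4, 4474 without iTBS 1, 3380 without cTBS 5). With the nuclear RNA covariate the member medians were 0.030 in the comparison of cTBS with sham and -0.087 in that of iTBS with cTBS, and the sign turned for 10 members in the first, among them Psmd11 (-0.10), Psmb7 (-0.052) and Psmb10 (-0.018), and for Psmb10 (0.11), Psmd11 (0.056) and Psmd7 (0.017) in the second. The count of members at unadjusted p under 0.05 for cTBS against sham, 10 in the test as reported, was 18 with RLE scaling, 21 with no filter, 18 with DESeq2, 19 with limma on the variance-stabilized values, 0 with the nuclear RNA covariate, and 6 to 29 when single libraries were left out; 6 without sham 3, 29 without sham 4. For iTBS against sham, Psmb9 was at -0.0053 with the replicate block, -0.030 with library number, -0.060 without sham 2, sham 5 and cTBS 4, and -0.080 to 0.14 when single libraries were left out; Psmb5 ran from -0.15 to 0.038 (without sham 4) and Psmb10 from -0.018 (without iTBS 1) to 0.18. The correlations of same-numbered deviations ran from -0.56 to 0.72 over the comparisons. They are too few and too mixed to settle whether replicate numbers pair the animals. The replicate block left 0 proteasome genes passing. The cause of these changes was not tested. Depth limits Psmb8 and Psmb9, with 4 to 35 counts per library.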
